A study of Mus musculus with 12 samples.

Results

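C/D box small nucleolar RNAs (snoRNAs) were followed across 12 mouse liver arrays as every probe set with a single annotated gene symbol that starts with Snord and a digit. Host genes, whose symbols end in hg, were left out. The rule gave 47 probe sets for 44 genes, of 30142 genes measured by probe sets with 1 symbol. The brightest probe set was used for each gene. The rule used names and not measured differences. Another 25 probe sets that pair a Snord symbol with other symbols were left out, and 29 Snord symbols occurred only on those.

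C/D box snoRNAs are short nucleolar RNAs named for their C and D sequence boxes. They bind fibrillarin (Fbl), Nop56, Nop58 and Snu13, and most of them guide the methylation of ribose at chosen positions of ribosomal or spliceosomal RNA by base pairing. A few are needed to cut or fold the ribosomal precursor instead. In mammals most are released from introns of host genes, many of which encode ribosomal proteins or other proteins of the translation apparatus.

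Each of the 3 groups held 4 arrays of liver RNA from male C57BL/6 mice aged 12 weeks. MatOb F3 males were great-grandsons and MatOb F2 males were grandsons of females with the genotype Avy/a that were obese. Avy (viable yellow) is a form of the agouti gene whose carriers become obese. Control males had lean control parents, and the labels do not give their generation. The question was whether the liver of males differs when the obesity lay generations back. The labels do not say that the replicates of a group were separate animals, so a p-value measures the spread between these samples, which may be technical.

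Values are log2 probe set values as deposited, and array medians lay between 4.49 and 4.60. Of 6 hepatocyte markers, 5 were measured, with means from 12.4 to 13.3, which matches the label liver. The level of these markers in an array, taken as the median of their values after the mean of each gene was subtracted, stayed between 0.01 and 0.05 in F3 arrays, between -0.06 and 0.05 in F2 arrays and between -0.09 and 0.06 in control arrays. Marker levels of every other cell type examined ranged more widely. Those of 6 Kupffer cell markers lay between -0.42 and 0.34 in F3, -0.20 and 0.46 in F2, and -0.16 and 0.16 in control arrays. Those of 5 stellate cell markers lay between 0.01 and 0.26, -0.19 and 0.02, and -0.19 and 0.17 in the same order. The 1 erythroid marker measured ran from -0.84 to 0.20 in control arrays. In whole liver, fewer cells that hold an RNA and less of that RNA per cell cannot be told apart. The number of arrays limits the precision.

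Before any comparison of groups, 5 arrays were low in several classes of small RNA, and they came from all 3 groups. These were F3 replicate 4, F2 replicates 2 and 3, and control replicates 1 and 3. They were the 5 arrays with the lowest level of the other snoRNA family, the H/ACA box snoRNAs, which guide pseudouridylation (18 genes). The choice of 5 was made after the values were seen. The widest gap between neighbouring H/ACA levels was 0.24, and it set apart only F2 replicate 2 and control replicates 1 and 3. F2 replicate 3 at -0.13 and F3 replicate 4 at -0.11 lay above that gap. Levels, spreads and medians of the family are given below over the 12 arrays and also within the 7 others where the 5 low arrays bear on them.

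The C/D level of an array, which is the median over the 44 genes of the log2 value minus the mean of that gene over the 12 arrays, spanned 0.87 on the log2 scale, or 1.83-fold. In F3 arrays it was 0.06, 0.21, 0.11 and -0.13. In F2 arrays it was 0.30, -0.39, -0.17 and 0.31. In control arrays it was -0.15, 0.19, -0.57 and 0.18. The 5 arrays named above were the only arrays of the 12 with a level below 0, and they included the lowest array of each group. Group means were 0.07 ± 0.14 in F3, 0.01 ± 0.35 in F2 and -0.08 ± 0.36 in control arrays (SD, n = 4 each), so the groups lay closer together than arrays within the F2 or the control group. Within the 7 other arrays alone the level spanned 0.27.

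**Figure D1:**
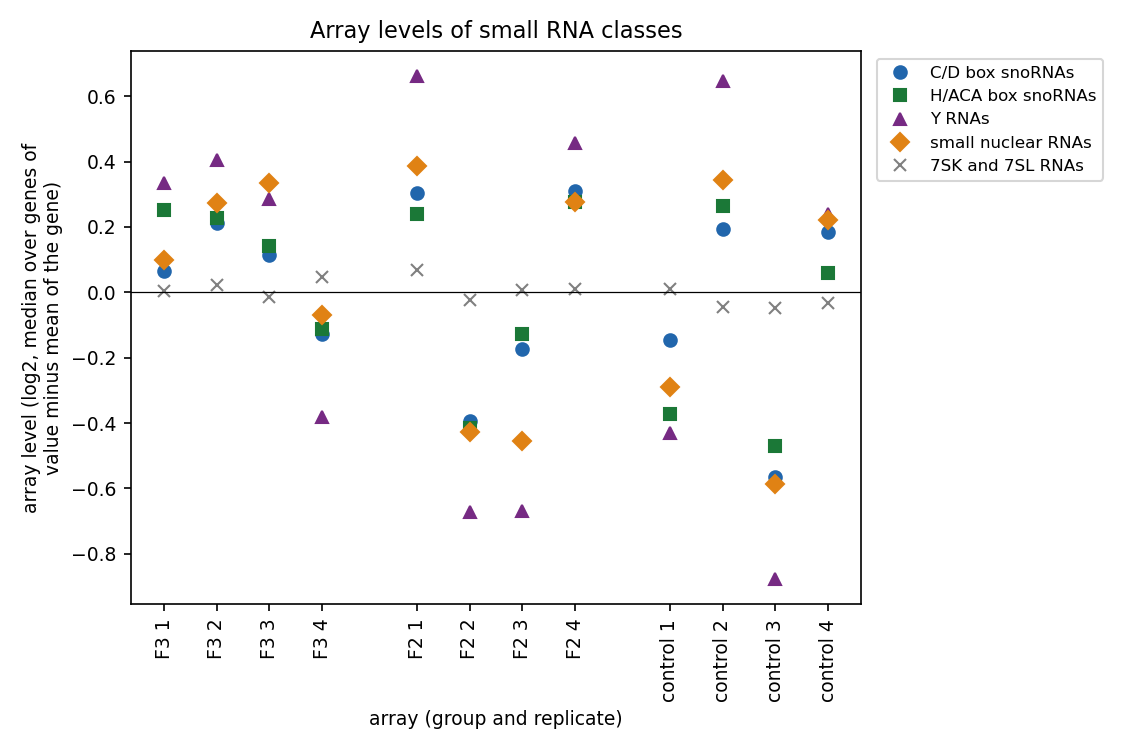
Level of 5 small RNA classes in each array, as the median over the genes of a class of the log2 value minus the mean of the gene (vertical axis), with 4 arrays each of F3, F2 and control along the horizontal axis. C/D box levels (circles) run from -0.57 in control replicate 3 to 0.31 in F2 replicate 4, and the H/ACA box snoRNAs, Y RNAs and small nuclear RNAs are low in the same 5 arrays, while 7SK and 7SL RNAs stay near 0.

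Small nuclear RNAs and Y RNAs were low in the same arrays as the H/ACA box snoRNAs. The H/ACA level spanned 0.74 over the 12 arrays. The level of 14 small nuclear RNA genes, whose RNAs serve splicing, spanned 0.97, and that of 2 Y RNA genes spanned 1.54. In each of these 3 classes the 5 arrays were the only arrays below 0. The level of 6 scaRNA genes, whose RNAs guide modification of small nuclear RNAs, spanned 0.48 and did not split in this way, with -0.04 in F3 replicate 1 and -0.02 in F3 replicate 4. The longer 7SK and 7SL RNAs (3 genes) spanned 0.11, and Rmrp with Rpph1, the RNAs of the nucleases MRP and P, spanned 0.19. Medians of negative control probe sets lay between 4.19 and 4.31 in F3 replicate 4 and F2 replicates 2 and 3, at 4.22 in control replicate 1 and at 4.04 in control replicate 3, against 4.17 to 4.40 in the 7 other arrays. Medians of background probe sets were 3.04 in F3 replicate 4, 3.17 and 3.14 in F2 replicates 2 and 3, and 3.13 and 3.33 in control replicates 1 and 3, against 2.68 to 3.09 in the 7 other arrays. The part of these control signals in the C/D levels was not tested.

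Within the C/D family, 1 pattern of arrays carried most of the variation. The first principal component of the 44 genes held 81.2% of their variance over the 12 arrays and the second held 6.85%. The weights of 42 of the 44 genes on the first component had the same sign. Within the 7 other arrays the first component held 40.8%. Control replicate 3 was the lowest array for 26 of the 44 genes, where 19.1% of all genes tested were lowest there, and F2 replicate 2 was the lowest for 5. F2 replicate 1 was the highest array for 13 genes and F2 replicate 4 for 10.

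**Figure D2:**
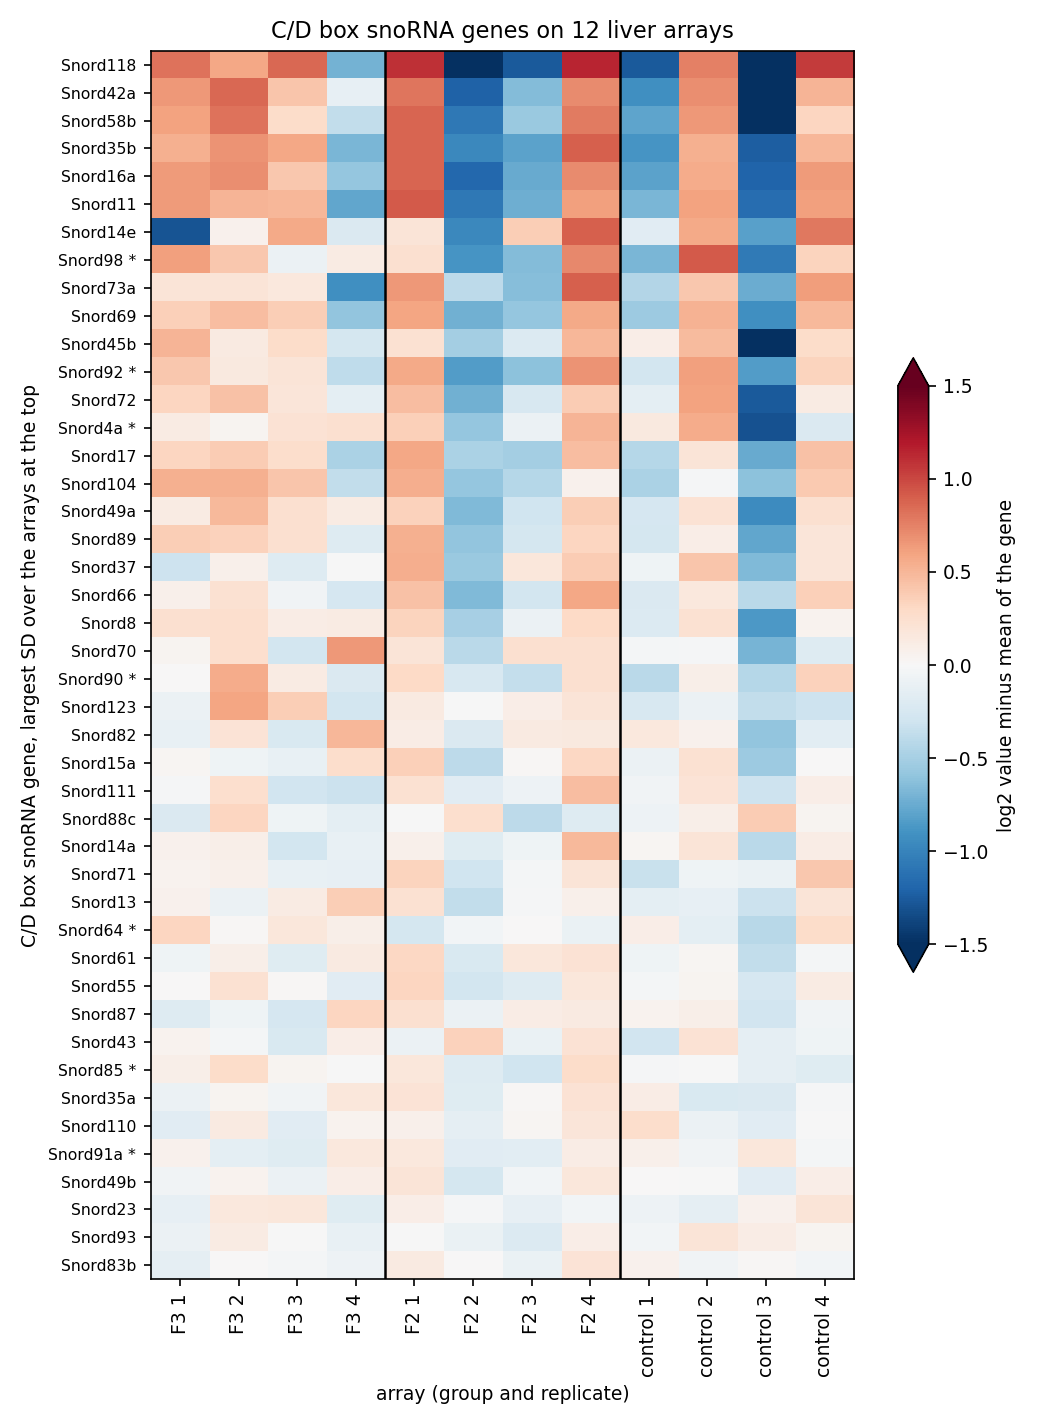
Log2 value minus the mean of the gene (colour, cut at -1.5 and 1.5) for the 44 C/D box snoRNA genes (rows, largest SD at the top) in 12 arrays (columns, F3, F2 and control). Asterisks mark the 7 genes under the filter on dim genes, and the upper rows are blue in F3 replicate 4, F2 replicates 2 and 3, and control replicates 1 and 3.

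The snoRNA genes differed in how far they followed this pattern. In 17 of the 44 genes, and in 15 of the 37 over the filter on dim genes, all 5 arrays lay below all 7 others, and in 0 genes above them. Among all 18725 genes tested, 3.37% had the 5 arrays lowest. The distance between the highest and the lowest array was over 1 log2 unit, or 2-fold, in 23 genes. The median SD over the 12 arrays was 0.36 for the 37 genes over the filter and 0.12 for all genes tested. It was 0.17 and 0.10 within the 7 other arrays. Of the 37 genes, 7 had an SD above 0.63, the 99th percentile of the genes tested, which 1.00% of those genes exceed, and 2 had an SD under the median of the genes tested.

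The filter kept genes with a mean value above 4.55, which is the median over every probe set of the table, and 43.0% of 5222 negative control probe sets were also above it. The 7 genes under it were Snord4a, Snord64, Snord85, Snord90, Snord91a, Snord92 and Snord98. Means of the 44 genes ran from 1.83 to 11.37 with a median of 7.12, and 22 genes lay above 7.05, the 95th percentile of the negative controls. Each probe set has its own response, so these values do not rank the RNAs by abundance.

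The snoRNAs listed for roles beyond guiding ribose methylation, mostly cutting or folding ribosomal precursor RNA, came first. Of 10 such genes, 4 were measured by probe sets of their own, and all 4 were over the filter. Snord118, the U8 RNA needed for the maturation of the large subunit RNAs, had the largest SD of the family at 1.14. Its values were 6.48, 6.24, 6.52 and 4.96 in F3 arrays, 6.76, 4.14, 4.40 and 6.81 in F2 arrays, and 4.41, 6.43, 4.12 and 6.71 in control arrays. The 5 low arrays lay between 4.12 and 4.96 and the 7 others between 6.24 and 6.81, so the arrays formed 2 separate levels that cut across the groups. Within the 7 others the SD of Snord118 was 0.21. A second probe set annotated to Snord118 stayed between 1.72 and 2.07 in all 12 arrays and did not show the pattern. Its mean of 1.86 lay under the filter and below 4.24, the median of the negative controls.

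Snord14e and Snord14a are copies of the U14 RNA, which pairs with the small subunit precursor and is needed to process it. Snord14e had 7.21, 8.56, 9.07 and 8.29 in F3 arrays, 8.69, 7.53, 8.87 and 9.39 in F2 arrays, and 8.32, 9.07, 7.68 and 9.29 in control arrays. Its lowest array was F3 replicate 1, which is not among the 5 low arrays, and its SD stayed at 0.75 within the 7 others. Snord14a ranged from 4.98 to 5.87 with an SD of 0.23. Near-identical copies such as these can share signal, so the values of single copies are uncertain. Snord13, the U13 RNA that guides acetylation of the small subunit RNA, ranged from 6.99 in F2 replicate 2 to 7.73 in F3 replicate 4. Its 2 probe sets had means of 7.36 and 7.28. F3 replicate 4 was thus the highest array for Snord13 and the lowest F3 array for Snord118.

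Among the guides of ribose methylation, those with the largest SD were low in the same 5 arrays. Their targets are given as assigned in human. Snord42a, a guide for the small subunit RNA, had 10.46, 10.68, 10.22 and 9.68 in F3 arrays, 10.61, 8.60, 9.16 and 10.52 in F2 arrays, and 8.89, 10.51, 8.08 and 10.33 in control arrays. This range of 2.60 equals 6.05-fold, and only the 5 low arrays were under 10. Snord16a, another guide for the small subunit RNA, ranged from 8.72 in control replicate 3 to 10.79 in F2 replicate 1, with an SD of 0.82 over 12 arrays and 0.14 within the 7 others.

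Guides for the large subunit RNA were low in the same arrays. Snord58b had 9.0, 9.21, 8.67 and 8.01 in F3 arrays, 9.26, 7.32, 7.83 and 9.16 in F2 arrays, and 7.60, 9.04, 6.84 and 8.71 in control arrays. Its 2 probe sets had means of 8.39 and 8.30. Snord35b had 7.20, 7.34, 7.25 and 5.98 in F3 arrays, 7.54, 5.70, 5.87 and 7.57 in F2 arrays, and 5.78, 7.20, 5.44 and 7.17 in control arrays. No array held Snord35b between 5.98 and 7.17, so as for Snord118 the arrays fell into 2 levels.

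Of the 8 genes with the highest values, some followed the 5 arrays and others stayed close to their mean. Snord104, a guide for the large subunit RNA, had 11.90, 11.91, 11.79 and 11.01 in F3 arrays, 11.92, 10.79, 10.95 and 11.43 in F2 arrays, and 10.90, 11.35, 10.76 and 11.76 in control arrays. Snord69, also a guide for the large subunit RNA, lay between 10.35 and 10.72 in the 5 low arrays and between 11.63 and 11.86 in the 7 others. Both held all 5 low arrays below all others. Snord55 ranged from 10.85 to 11.45 with the 5 arrays lowest as well, but its SD was only 0.19. Snord71, whose human counterpart guides methylation of rRNA, ranged over 0.74 with an SD of 0.23. Together the 8 genes with the largest SD carried 57.4% of the summed squared deviations of the family.

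The steadiest genes over the filter were Snord83b with an SD of 0.095, Snord93 with 0.12, Snord23 with 0.13, Snord49b with 0.13 and Snord110 with 0.15. Snord83b lay between 6.75 and 7.09 in every array and had 6.91 in control replicate 3, the array in which Snord42a and Snord58b were lowest. Snord110, a guide for the small subunit RNA, was highest in control replicate 1 at 10.09, 1 of the 5 low arrays, and the lowest arrays were at 9.65. Genes of both kinds had high and low values, and the median of the means was 7.60 for the 10 genes with the largest SD and 8.84 for the 10 with the smallest.

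**Figure D3:**
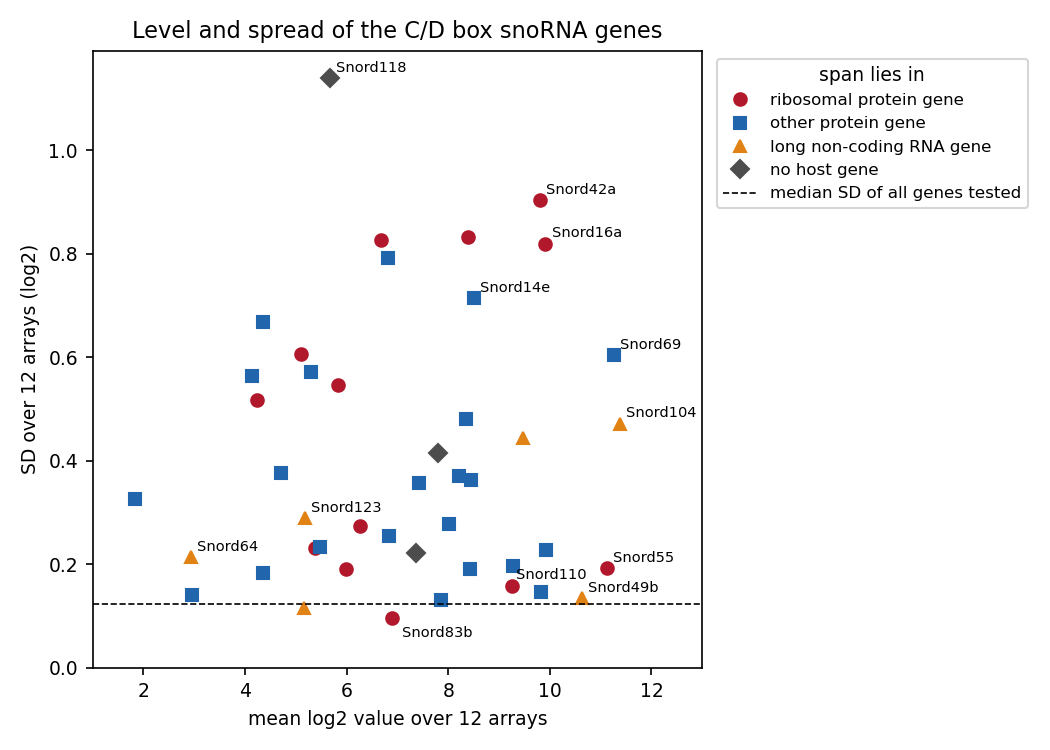
SD over the 12 arrays (vertical axis, log2) against mean log2 value (horizontal axis) for the 44 C/D box snoRNA genes, with a symbol for the kind of host gene and a dashed line at the median SD of all genes tested, 0.12. Snord118 has the largest SD at 1.14, and genes with means above 9 occur both near the line, such as Snord49b, and far above it, such as Snord42a and Snord16a.

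Clusters of snoRNA genes known from other tissues were thinly covered. Of the 4 snoRNA genes in introns of Rpl13a, which have been tied to the response of cells to lipid excess, Snord35a was measured, with 9.17, 9.30, 9.20 and 9.43 in F3 arrays, 9.46, 9.07, 9.28 and 9.47 in F2 arrays, and 9.37, 9.03, 9.04 and 9.23 in control arrays. Its groups overlapped, and control replicate 1, a low array for Snord42a, was among its higher arrays. Of the imprinted snoRNA genes of the Prader-Willi region, Snord64 was measured, with a mean of 2.93 under the filter. That cluster is known for its activity in neurons. The 10 snoRNA genes hosted by Gas5 and the 8 hosted by Snhg1 were not analysed here, since none had a probe set with its symbol alone.

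Host genes were taken as those whose RefSeq span holds the span of the snoRNA gene, with strand not considered. Such a host was found for 41 of the 44 genes, and Snord118, Snord13 and Snord89 had none. By host, 13 genes lay in ribosomal protein genes with a median SD of 0.52, 22 in other protein genes with 0.34, and 6 in long non-coding RNA genes alone with 0.25. The 3 genes without a host had a median SD of 0.41. The 5 arrays lay below all others for 7, 7, 1 and 2 genes of these classes. The median SD within the 7 other arrays was 0.17 in each of the 3 classes with a host and 0.14 in the genes without, so the order of the classes rested on the 5 low arrays.

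The transcripts of the hosts did not vary to the same degree. Over 23 pairs of a snoRNA gene and a host measured over the filter (20 snoRNA genes, 22 hosts), the snoRNA had the larger SD in 20. The median SD was 0.34 for these snoRNA genes and 0.12 for their hosts, whose SD ran from 0.040 to 0.23. The snoRNA had the larger SD within the 7 other arrays in 18 of the 23 pairs, with medians of 0.18 and 0.097. Rpl4, a ribosomal protein gene, stayed between 11.06 and 11.21 while Snord16a inside it ranged over 2.07, or over 0.47 within the 7 other arrays. Hspa8, a heat shock protein gene that holds Snord14e, ranged over 0.62, while Snord14e ranged over 2.19, and also over 2.19 within the 7 others.

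In some hosts, snoRNA genes inside the same host differed from each other in how far they were low in the 5 arrays. The pairs given here were chosen after their values were seen. Nop58 encodes a core protein of C/D particles and holds Snord11 and Snord70, which guide methylation of the small subunit RNA in human. Snord11 had 7.45, 7.31, 7.31 and 6.03 in F3 arrays, 7.72, 5.74, 6.08 and 7.42 in F2 arrays, and 6.13, 7.41, 5.67 and 7.42 in control arrays. Snord70 had 7.47, 7.68, 7.15 and 8.08 in F3 arrays, 7.61, 7.02, 7.67 and 7.66 in F2 arrays, and 7.39, 7.41, 6.73 and 7.23 in control arrays. F3 replicate 4 was therefore the highest array for Snord70 and among the 5 lowest for Snord11. The SD was 0.79 for Snord11, 0.36 for Snord70 and 0.23 for Nop58. It was 0.14 within the 7 other arrays for Snord11, 0.21 for Snord70 and 0.23 for Nop58, so the larger SD of Snord11 came from the 5 low arrays.

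Snord49a and Snord49b lie in the long non-coding gene 2410006H16Rik and guide methylation of the large subunit RNA in human. The SD was 0.44 for Snord49a and 0.13 for Snord49b, and 0.12 and 0.11 within the 7 other arrays. Snord49a was lowest in control replicate 3 at 8.53 and highest in F3 replicate 2 at 9.97, and Snord49b stayed between 10.37 and 10.82. Rpl23a holds Snord42a with an SD of 0.90 and Snord4a with 0.52, and within the 7 others their order turned, at 0.16 and 0.27. Snord4a, with a mean of 4.24, lay under the filter. Rpl3 holds Snord43 with an SD of 0.19 and Snord83b with 0.095, and 0.17 and 0.11 within the 7 others. Neither gene in Rpl3 had all 5 low arrays below the 7 others, and Snord43 was highest in F2 replicate 2, a low array. Spans in the annotation ran from 28 to 221 bases. Their median was 65.5 bases for the 10 genes with the largest SD and 68.5 bases for the 10 with the smallest.

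**Figure D4:**
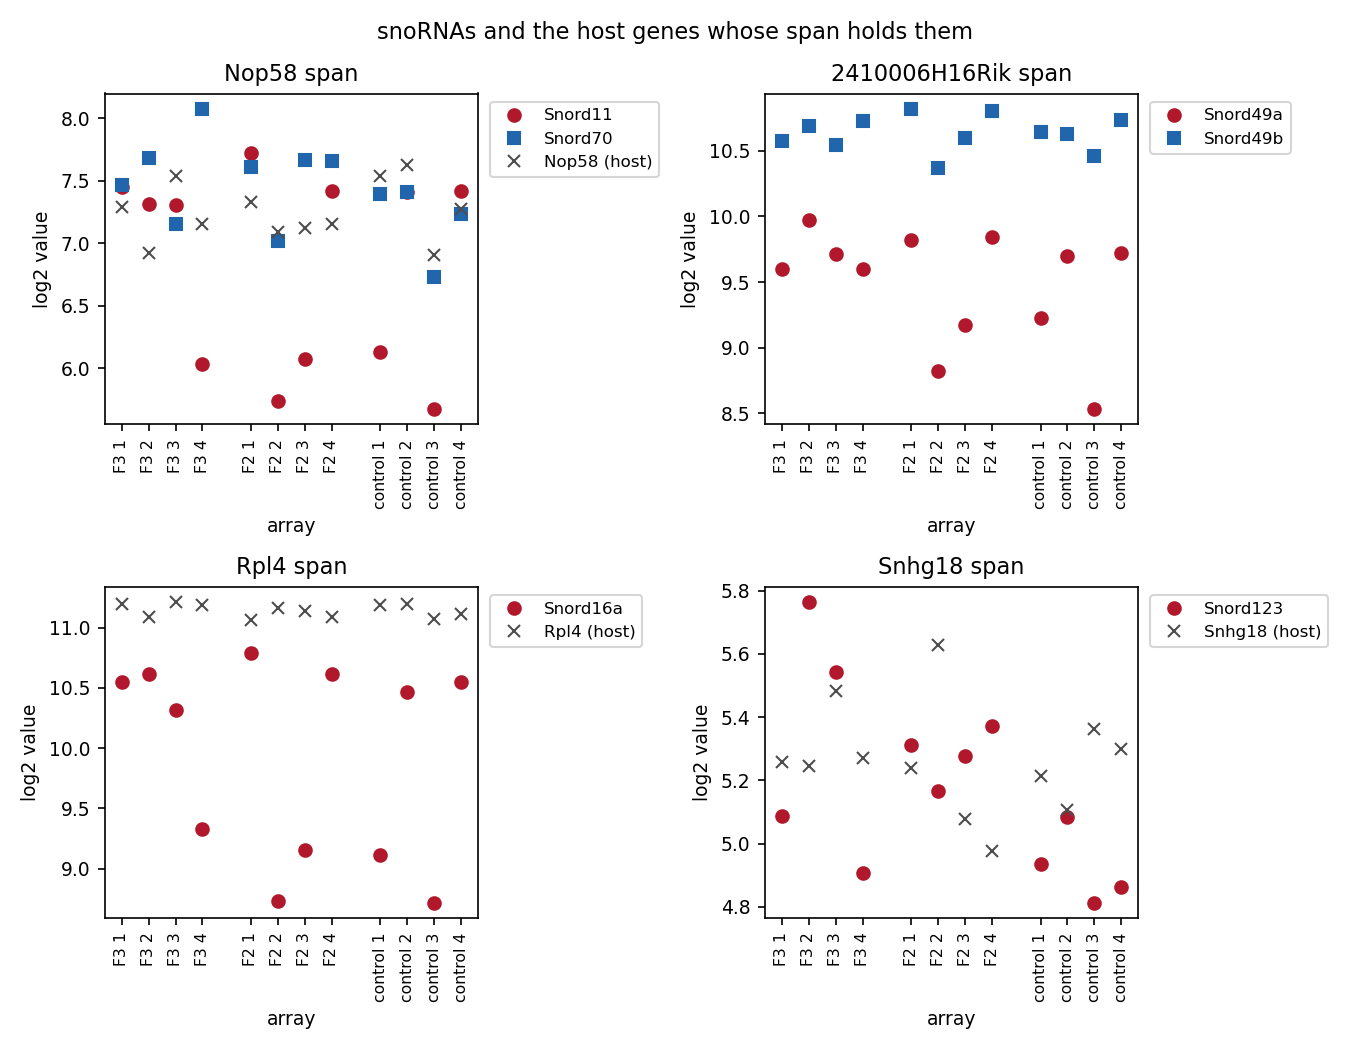
Log2 values (vertical axes, which differ between panels and do not start at 0) of snoRNA genes and of measured hosts in F3, F2 and control arrays (horizontal axis), in 4 panels named for the host. Snord11 and Snord16a have separate lower values in F3 replicate 4, F2 replicates 2 and 3, and control replicates 1 and 3, while Snord70, Snord49b and the hosts Nop58 and Rpl4 do not.

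Many snoRNA hosts belong to a class of genes whose transcripts start with a run of pyrimidines, the 5′ terminal oligopyrimidine motif of translation genes. Start sequences of 4 hosts are shown because their snoRNA genes carry the contrasts above. Each runs from 15 bases before the annotated start to 15 bases from it on, from RefSeq on GRCm38.p6. Capitals mark an unbroken run of at least 6 letters C or T that starts within 5 bases of the annotated start.
Rpl13a, chr7:45128731-45128760, minus strand: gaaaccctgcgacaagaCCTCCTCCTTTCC
2410006H16Rik, chr11:62602862-62602891, plus strand: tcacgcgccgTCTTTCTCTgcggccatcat
Nop58, chr1:59684991-59685020, plus strand: tatttgctgctccacgaggagaggtgtgga
Rpl4, chr9:64173372-64173401, plus strand: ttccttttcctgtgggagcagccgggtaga
Rpl13a (Snord35a) and 2410006H16Rik (Snord49a and Snord49b) hold such a run at these coordinates, and Nop58 (Snord11 and Snord70) and Rpl4 (Snord16a) do not. Of 42 hosts, 31 were in the table of start sequences and 8 of these held a run, against 12.1% of 32851 start sequences. A host counted if any of its start sequences held a run, while the 12.1% counts single start sequences, so these are unlike measures. The window of Rpl4 opens with C and T letters that lie farther from the annotated start and were not counted. A run is a description of letters, and its absence says only that none starts within this reach of the annotated start.

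With this variation between arrays, 0 of the 37 C/D box snoRNA genes over the filter passed the test in any of the 3 comparisons (limma, Benjamini-Hochberg adjusted p under 0.05 over 18725 genes). Among all genes tested, 0 passed in each comparison as well, which is 0.00% of them. At an unadjusted p under 0.05 limma counted 548 genes for F3 against control, 172 for F2 against control and 443 for F3 against F2. A p that misses the threshold does not show that the groups are alike.

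For F3 against control, 26 of the 37 snoRNA genes had a higher mean in F3 (70.3%), where 45.3% of all genes tested did. The median log2 difference was 0.13, against -0.01 for all genes tested. Differences ran from -0.31 for Snord14e to 0.81 for Snord42a, whose standard error was 0.56 and 95% interval -0.40 to 2.02. The 95% interval lay within 2-fold either way for 25 of the 37 genes. The smallest adjusted p of the family was 0.9998 (limma). An unadjusted p under 0.05 was found for 1 of them (2.70%), against 2.93% of all genes. No snoRNA gene had F3 and control arrays that did not overlap, which 1.63% of all genes had (0.726% with F3 higher).

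For F2 against control, 34 of the 37 snoRNA genes had a higher mean in F2 (91.9%), where 43.3% of all genes tested did. The median log2 difference was again 0.13, against -0.01 for all genes, and differences ran from -0.20 for Snord88c to 0.36 for Snord123. These 2 comparisons share the control arrays, so their common direction is not a repeat. The 95% interval lay within 2-fold for 29 genes, and the smallest adjusted p was 0.9999 (limma). An unadjusted p under 0.05 was found for 1 gene (2.70%), against 0.919% of all genes, and the arrays of 1 gene did not overlap, against 0.705% of all genes (0.304% with F2 higher).

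The direction of these medians depended on the arrays used. Without control replicate 3, 12 of the 37 genes had a higher mean in F2 and 20 in F3, and the medians were -0.04 for F2 and 0.01 for F3. Of the 18725 genes tested, 9093 had a higher mean in F2 and 9809 in F3 without that array. With the H/ACA level of each array as a covariate the medians were -0.01 for F2 and -0.07 for F3 against control, and -0.06 for F3 against F2. With the arrays below the widest gap in H/ACA level set apart as a block, they were -0.03, -0.10 and -0.07 in the same order. With the 5 low arrays as a block they were 0.13, 0.03 and -0.05. F2 and control held equal numbers of the 5 low arrays, so that block cannot move their difference. Within the 7 other arrays the medians were 0.17 for F2 against control and -0.05 for F3 against control. Within the 5 low arrays they were 0.08 and 0.28, and the 0.28 rested on F3 replicate 4 as the only F3 array.

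For F3 against F2, 22 of the 37 snoRNA genes had a higher mean in F3 (59.5%), where 51.4% of all genes did. The median log2 difference was 0.04 and differences ran from -0.34 for Snord14e to 0.54 for Snord42a. The interval lay within 2-fold for 28 genes, 0 had an unadjusted p under 0.05, against 2.37% of all genes, and 0 had arrays that did not overlap, against 2.46% (1.62% with F3 higher). Within the 7 other arrays the median was -0.20, with 4 of 37 genes higher in F3, against 10631 of the 18725 genes tested. Within the 5 low arrays, where F3 replicate 4 was the only F3 array, it was 0.16 with 30 higher, against 9276 of all genes tested.

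**Figure D5:**
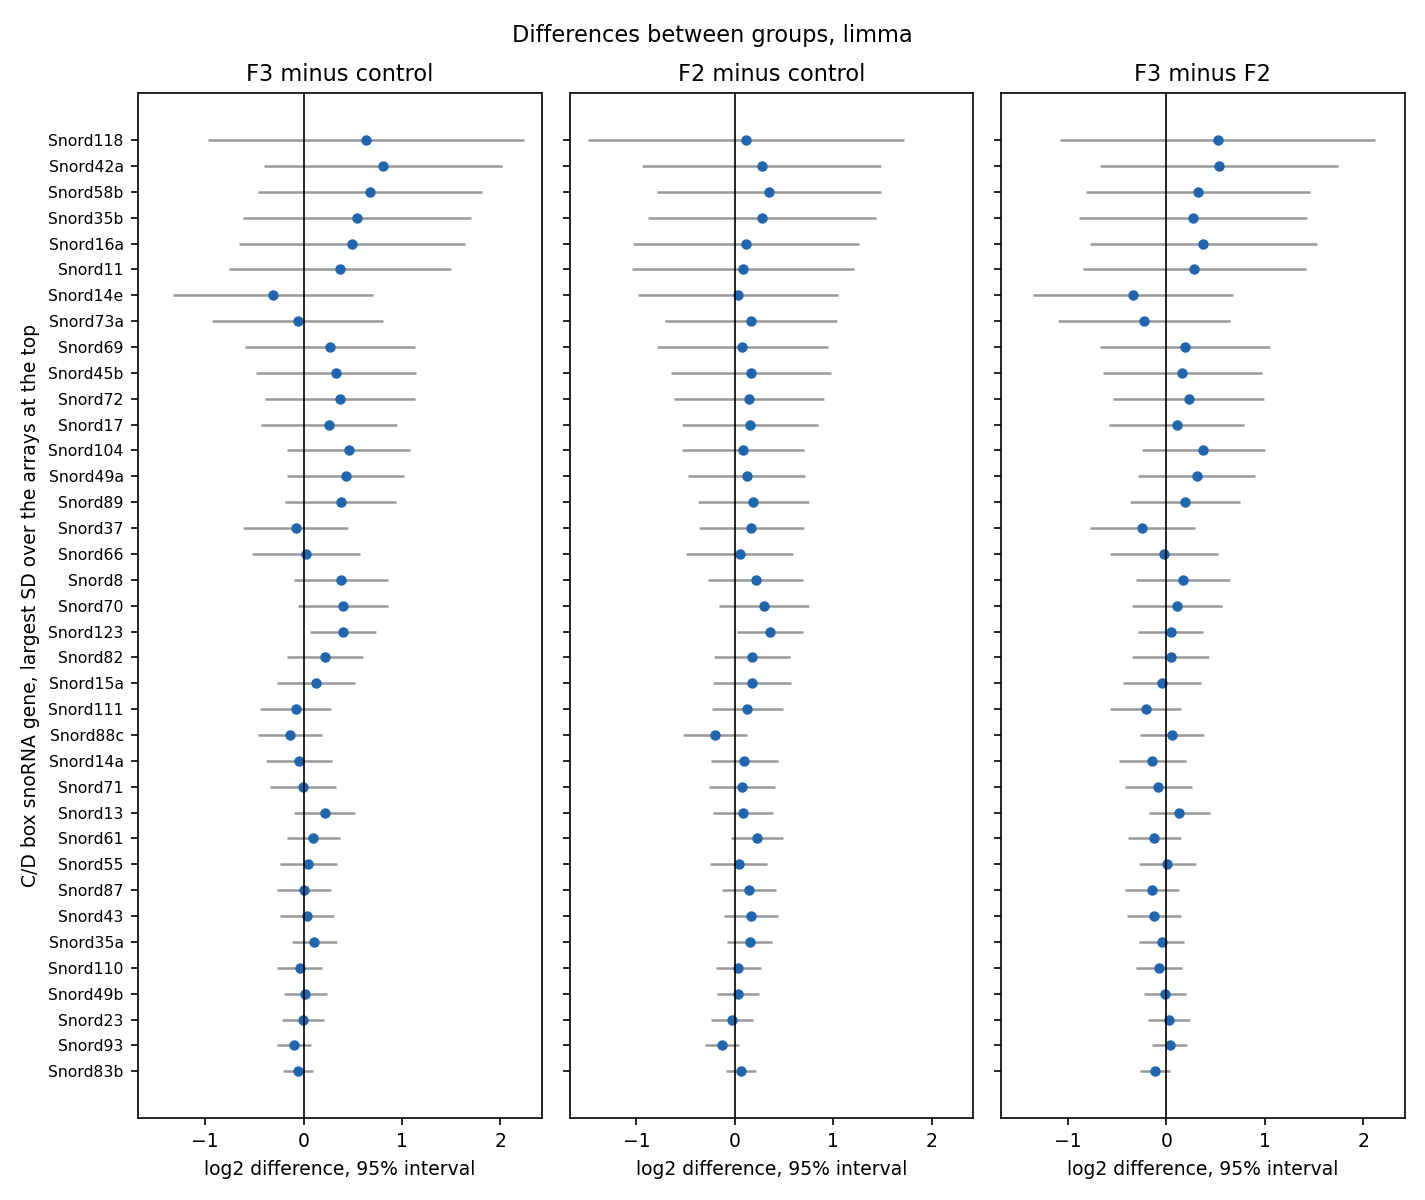
Log2 difference with its 95% confidence interval from limma (horizontal axes) for the 37 C/D box snoRNA genes over the filter (rows, largest SD at the top) in 3 panels, F3 minus control, F2 minus control and F3 minus F2. Intervals narrow from Snord118 to Snord83b, most cross 0, and none of the genes passes the adjusted threshold.

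Among single genes, Snord123 was the only gene of the 37 whose 4 F2 arrays lay apart from the 4 control arrays. Its values were 5.09, 5.76, 5.54 and 4.91 in F3 arrays, 5.31, 5.17, 5.28 and 5.37 in F2 arrays, and 4.93, 5.08, 4.81 and 4.86 in control arrays. All F2 values were above all control values, while F3 values spread on both sides of them. Means of Snord123 were 5.33 ± 0.40 in F3, 5.28 ± 0.086 in F2 and 4.92 ± 0.12 in control arrays (SD, n = 4 each). The log2 difference of Snord123 was 0.36 for F2 against control (SE 0.15, limma adjusted p = 0.9999). It was 0.40 for F3 against control (SE 0.15, limma adjusted p = 0.9998), where without F3 replicate 2 it was 0.26, and 0.04 for F3 against F2. It was the gene with an unadjusted p under 0.05 in both comparisons with control, and neither difference passed the adjusted threshold. All values of Snord123 lay below 7.05, the 95th percentile of the negative controls. Snord123 did not have all 5 low arrays below the others, but its lowest array in each group was among the 5. Its host, the long non-coding gene Snhg18, had 5.26, 5.25, 5.48 and 5.27 in F3 arrays, 5.24, 5.63, 5.08 and 4.98 in F2 arrays, and 5.21, 5.10, 5.36 and 5.30 in control arrays, so the host showed no such split.

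Snord118 differed by 0.63 for F3 against control with a 95% interval from -0.97 to 2.24, and by 0.11 for F2 against control with an interval from -1.49 to 1.71. For Snord83b the intervals were -0.21 to 0.10 for F3 and -0.09 to 0.21 for F2 against control. The same arrays thus bound the difference of Snord83b well within 2-fold, and the intervals of Snord118 reached beyond 2-fold. Snord35a differed by 0.11 for F3 and by 0.15 for F2 against control, with intervals from -0.12 to 0.34 and from -0.08 to 0.38.

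Genes for the proteins of C/D particles were measured for 16 of 20 listed, all over the filter. The list held core proteins such as Fbl, the methyltransferase, and Nop58, and assembly factors such as the ATPases Ruvbl1 and Ruvbl2. None of the 16 passed the test in any comparison (limma), and 0 had an unadjusted p under 0.05. The median SD was 0.10, with a range from 0.052 to 0.23 set at its top by Nop58, against a median of 0.36 for the C/D box snoRNA genes over the filter. Within the 7 other arrays these medians were 0.077 and 0.17. The mean was higher in F3 than in control arrays for 3 of the 16 and higher in F2 than in control arrays for 3, with medians of -0.05 for both comparisons. Against F2, 9 were higher in F3 with a median of 0.01.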

How the data were processed

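The deposited table held log2 values of 72688 probe sets in 12 columns, which, per the submitters' processing notes, the authors made in Affymetrix Expression Console. For its version, the normalization and the build, the entry is not given in the sources used here. Values ran from 0.73 to 13.64. Per the labels' protocols, Trizol total RNA (100 ng) was labelled with a biotin whole-transcript kit. Symbols came from the platform annotation, of which 827 were updated from RefSeq (GRCm38.p6), which also gave hosts and start sequences.

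One model over all 12 arrays, without covariates and with 9 residual degrees of freedom, was fitted by lmFit and eBayes (limma 3.58.1, R 4.3.3) to the brightest probe set of each gene, with Benjamini-Hochberg adjustment over 18725 genes. The procedure was tested on simulated data with independent noise for each gene. That simulation lacked the array pattern shared by the snoRNA genes, and its changes were larger than the differences of those genes. Named genes were those with arrays of 2 groups that do not overlap, the 8 highest means, the 5 largest and 5 smallest SD, the 4 farthest from the family level, and measured genes of the lists by role. Others are named for a shared host or a range. Members, lists and alternatives were chosen with earlier results of these data known. Alternatives were other normalizations, filters, probe set rules, variance models, covariates, blocks, thresholds, and leaving out arrays.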

Additional observations from a re-analysis of the deposited data

Results flagged for a closer look

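Within groups of 4 arrays, 63 groups of values were examined. In 3 of them an array had a gap to the nearest other array above Dixon's 95% critical share of the range. The snoRNA genes examined were the 20 named by rule, some for a large SD, and others such as Snord11 were not examined. Chance gives about 1 in 20 for independent groups, and these genes vary together over the same arrays, so the count cannot be set against that share. All 3 were F3 replicate 4, an array with low snoRNA levels. It had 11.01 for Snord104 (gap of 0.867 of the range), 10.68 for Snord69 (0.905) and 5.98 for Snord35b (0.894). F2 and control arrays held similar low values in 2 arrays of 4 each, so no single array stood apart there.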

How the results depend on the processing

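No C/D box snoRNA gene was called in any comparison under the alternatives run. The median difference ranged from -0.20 to 0.16 for F3 against F2, from -0.10 to 0.28 for F3 against control and from -0.04 to 0.32 for F2 against control. The 0.16 and the 0.28 came from the 5 low arrays, in which F3 replicate 4 was the only F3 array. The share of the first principal component was 78.9% after quantile normalization, 79.3% after centring on array medians, 78.9% to 83.7% when each array was left out in turn, and 40.8% within the 7 other arrays, where the level range was 0.27 (0.71 to 0.88 when each array was left out). With the replicate number as a block 0 genes were called. Each group holds every replicate number, so this block cannot move the medians of 0.13, 0.13 and 0.04. After the mean of each group was subtracted, samples with the same number correlated at -0.51 to 0.32 over the genes tested. Samples with different numbers were not compared, so these values cannot settle whether the numbers pair the samples. Snord123 stayed between 0.29 and 0.41 for F2 against control and between 0.03 and 0.54 for F3 against control, lowest within the 5 low arrays, a set chosen after seeing the data. Over all genes, where 0 were called, an adjusted p under 0.05 called 115 for F2 against control within the 3 arrays lowest in H/ACA level (F2 replicate 2, control replicates 1 and 3; 1 residual degree of freedom), and 2 for F3 against control and 3 for F3 against F2 within the 5 low arrays, with 0 snoRNA genes among them. A difference of at least 1.5-fold together with an unadjusted p under 0.05 was met by 9 genes for F2 against control, 8 for F3 against control and 4 for F3 against F2, and by 0 snoRNA genes. Signal near the negative controls limits the dimmer genes.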
